A study of Homo sapiens with 8 samples.

Results

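The 9 genes described here, F3, TFPI, THBD, PROS1, PLAU, PLAUR, ANXA2, S100A10 and SERPINB2, encode proteins that start, restrain or dissolve blood clots, and were chosen by symbol for their part in the bleeding disorder of acute promyelocytic leukaemia (APL). The 9 were chosen with earlier results of these data known. They are 9 of the 37526 gene names counted in all 8 RNA-seq libraries of the study, out of 75553 names listed in any library. The libraries come from NB4, an established cell line of APL in which PML and RARα are fused, and ask how loss of the histone demethylase KDM3B alters gene expression before and after differentiation by all-trans retinoic acid (ATRA).

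There were 4 conditions with 2 libraries each. Scramble cells carried the stable lentiviral control, an empty vector in the sample labels and a scrambled short hairpin RNA (shRNA) in the study's methods, and shKDM3B cells stably expressed an shRNA against KDM3B. The scramble+ATRA and shKDM3B+ATRA cells were these cells given ATRA for 24 or 48 h at 1 µM by the labels, where the study's methods write the dose in mM, with no statement of which time applies to which library. All cells therefore share the NB4 background, PML/RARα and a transduced vector, and the sources used here do not say which hairpin was sequenced or whether the replicates were separate cultures, so that p-values measure only the spread between these libraries.

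In APL, promyelocytes expose tissue factor, which starts coagulation with factor VII, and at the same time carry the annexin A2 and S100A10 complex, a surface receptor on which plasminogen is turned into the fibrin-dissolving enzyme plasmin. Urokinase and its receptor feed the same reaction, whereas plasminogen activator inhibitors of the serpin family oppose it. Tissue factor pathway inhibitor, thrombomodulin and protein S restrain clotting, and ATRA treatment is known to relieve the bleeding disorder of patients while the cells mature.

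Counted read pairs numbered from 9708739 to 33017787 per library. Uniquely aligned pairs that the counting assigned to no gene are called pairs outside genes here. The strand setting of the counting is not given, so pairs on the strand opposite a gene may be among them. They made up 8.49% to 9.62% in the 4 untreated libraries and 9.36% in replicate 1 of scramble+ATRA. Their share was 50.0% in replicate 2 of scramble+ATRA, 51.4% in replicate 1 of shKDM3B+ATRA and 51.0% in replicate 2. The same 3 libraries stood apart for C10orf55, a long noncoding RNA on the strand opposite PLAU, with 219, 171 and 201 counts against 2 to 6 in the other 5. The response to ATRA in shKDM3B cells therefore compares libraries that differ in ATRA and in this respect, and these cannot be told apart. Each comparison with scramble+ATRA can also be made within libraries alike in this respect. The untreated and treated files also list different gene names, 56470 and 56609, with 37526 shared. In both backgrounds ATRA and the list of names therefore changed together, and these cannot be told apart. KDM3B, the targeted gene, was at 187 and 188 CPM (counts scaled to library size) in scramble and 76.3 and 86.1 in shKDM3B cells, and at 196 and 121 CPM in scramble+ATRA and 52.4 and 57.3 in shKDM3B+ATRA.

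**Figure D1:**
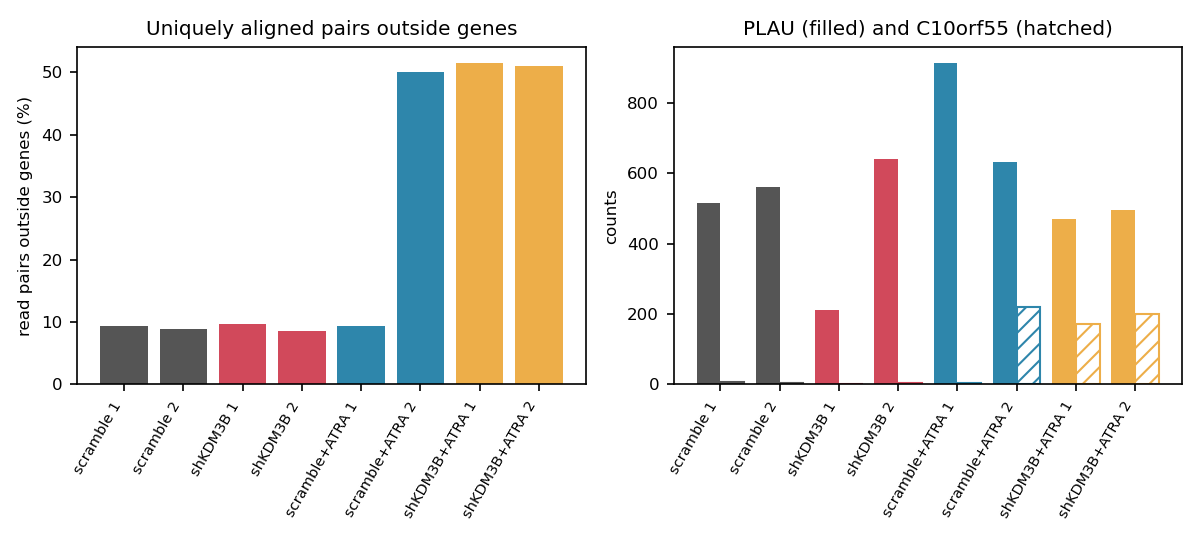
The bars at left show, for each of the 8 libraries, the percentage of uniquely aligned read pairs assigned to no gene (pairs outside genes). Those at right show the raw counts of PLAU (filled) and of C10orf55 on its opposite strand (hatched). The last 3 ATRA libraries have 50.0% to 51.4% of pairs outside genes and 171 to 219 counts of C10orf55.

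MPO, CTSG and CD33, promyelocyte markers, were above 1 CPM in both libraries of every condition, whereas the other 4 of the 7 markers of the list, ELANE among them, were not. The summed level of these 7 was 4451 to 5531 CPM in scramble, 8550 to 9718 in shKDM3B, 707 to 844 in scramble+ATRA and 2321 to 3222 in shKDM3B+ATRA. MPO, the granule enzyme myeloperoxidase, made up most of it and was 1.85-fold higher with knockdown without ATRA (adjusted p = 0.105 from edgeR) and 3.99-fold higher with knockdown under ATRA (adjusted p = 0.502), both called by the rule given next. The summed level of 8 granulocyte markers was 503 to 505 CPM in scramble, 319 to 329 in shKDM3B, 3647 to 4021 in scramble+ATRA and 1776 to 2133 in shKDM3B+ATRA, and knockdown left 4 of them called lower without ATRA and 6 with it. In bulk RNA of this kind, fewer cells expressing a gene and less RNA per cell cannot be told apart.

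A change of at least 1.5-fold with an unadjusted P-value under 0.05, by the quasi-likelihood test of edgeR, was called, and p-values adjusted by the Benjamini-Hochberg method over all genes are given beside the calls. With ATRA, 6 of the 9 genes were called in scramble cells, PLAU, PROS1 and SERPINB2 higher and F3, ANXA2 and TFPI lower. Of all 12429 genes tested there, 15% were called higher and 10.8% lower, 25.9% in all. Because the 9 were chosen with earlier results known, such shares describe the calls here and below and test no excess among the members. These all-gene counts were 1866 higher and 1347 lower, and 1599 and 1703 with scaling by library size alone. In shKDM3B cells, 7 of the 9 were called with ATRA, PLAU, PROS1, SERPINB2 and THBD higher and F3, ANXA2 and PLAUR lower, while 24% of 12756 genes were called higher and 18.3% lower, 42.2% in all.

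With knockdown, KDM3B itself was 2.31-fold lower without ATRA (log2 -1.21, adjusted p = 0.068 from edgeR) and 2.89-fold lower with it (log2 -1.53, adjusted p = 0.502), both called, although the second was not without replicate 1 (-1.46) or replicate 2 (-1.59) of shKDM3B+ATRA. Its log2 fold change with ATRA was -0.21 in scramble and -0.51 in shKDM3B cells, neither called. The first was -0.59 without replicate 1 and 0.07 without replicate 2 of scramble+ATRA. The difference of these responses was -0.33 (standard error 0.32), and -0.64 without replicate 2 of scramble+ATRA. Fewer of the 9 genes were called with knockdown than with ATRA. Without ATRA, 3 of the 8 members tested were called, F3, PLAU and PROS1, each lower in shKDM3B cells, against 3.53% of 13855 genes called lower, 3.48% higher and 7.01% in either direction. With ATRA, 3 of 9 were called, TFPI and PROS1 higher and SERPINB2 lower, against 2.42% of 14281 genes called higher, 4.37% lower and 6.79% in either direction. With all libraries and no replicate block, none of the 9 passed an adjusted p of 0.05 in a knockdown comparison by edgeR, a limit passed by 0.0217% of all genes without and 0% with ATRA. At an unadjusted P-value under 0.05 and any fold, the numbers of genes were 1411 and 1383. By DESeq2, with 2.04% of genes past the adjusted limit without and 2.56% with ATRA, SERPINB2 alone of the 9 did so, under ATRA (adjusted p = 0.0295). Without replicate 1 or replicate 2 of scramble+ATRA, 5 of the 9 passed it by edgeR in the comparison under ATRA, as did 13.3% and 34.6% of all genes, and PLAU did without ATRA when replicate 2 of shKDM3B was left out (adjusted p = 0.0407), as did 1.67% of all genes. The knockdown comparisons use the same libraries as the ATRA comparisons, so the sets of calls are not independent.

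Windows of 250 bases before transcript starts were read from the RefSeq promoter table on GRCh38.p14, which held 8 of the 9 members in 9 windows, PLAU with 2, and not THBD. Each window lies before the start of a RefSeq transcript, which is the outermost start of the GENCODE gene for F3 and S100A10 and lies 378 bases inside the gene for PLAUR, 4897 for ANXA2, 6107 for PROS1, 11325 for TFPI, 16013 for SERPINB2, and 1433 and 1955 for PLAU. Both strands were searched for the AP-1 motif TGACTCA, the core AGGTCA of retinoid receptor sites, the PU.1 core GAGGAA and the TATA box TATAAA. A match on the opposite strand reads TGAGTCA for AP-1, TGACCT for the retinoid core, TTCCTC for PU.1 and TTTATA for the TATA box. The windows of F3, ANXA2 and PLAUR are shown because each holds TGAGTCA and each gene was called lower with ATRA in shKDM3B cells. In scramble cells PLAUR was not called, whereas TFPI, whose window holds no AP-1 match, was called lower. The windows of SERPINB2 and PROS1 are shown because these genes had the largest increases with ATRA among the members. Capitals mark the motif matches, and each sequence runs 5′ to 3′ on the strand of its gene.

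F3 (chr1:94541760-94542009, minus strand): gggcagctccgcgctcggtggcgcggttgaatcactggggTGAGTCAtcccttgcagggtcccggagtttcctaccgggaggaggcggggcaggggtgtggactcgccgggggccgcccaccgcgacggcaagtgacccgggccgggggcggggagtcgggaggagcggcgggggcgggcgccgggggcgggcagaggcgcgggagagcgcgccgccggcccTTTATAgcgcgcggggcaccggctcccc

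ANXA2 (chr15:60397987-60398236, minus strand): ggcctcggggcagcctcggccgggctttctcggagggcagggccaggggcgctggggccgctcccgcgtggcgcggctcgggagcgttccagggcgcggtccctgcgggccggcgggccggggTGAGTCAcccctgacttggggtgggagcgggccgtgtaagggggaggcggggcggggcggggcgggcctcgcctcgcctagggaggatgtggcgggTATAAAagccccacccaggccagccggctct

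PLAUR (chr19:43670170-43670419, minus strand): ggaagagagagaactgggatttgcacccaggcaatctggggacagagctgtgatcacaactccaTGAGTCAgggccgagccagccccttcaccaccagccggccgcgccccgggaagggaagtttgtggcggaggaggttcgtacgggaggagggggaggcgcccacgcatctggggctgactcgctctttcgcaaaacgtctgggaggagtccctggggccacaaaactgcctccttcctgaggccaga

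SERPINB2 (chr18:63887455-63887704, plus strand): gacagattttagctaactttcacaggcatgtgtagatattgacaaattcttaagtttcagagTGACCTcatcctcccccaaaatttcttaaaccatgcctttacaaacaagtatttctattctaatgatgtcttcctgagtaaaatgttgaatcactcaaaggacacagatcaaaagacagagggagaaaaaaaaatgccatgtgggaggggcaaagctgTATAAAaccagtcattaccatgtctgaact

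PROS1 (chr3:93973897-93974146, minus strand): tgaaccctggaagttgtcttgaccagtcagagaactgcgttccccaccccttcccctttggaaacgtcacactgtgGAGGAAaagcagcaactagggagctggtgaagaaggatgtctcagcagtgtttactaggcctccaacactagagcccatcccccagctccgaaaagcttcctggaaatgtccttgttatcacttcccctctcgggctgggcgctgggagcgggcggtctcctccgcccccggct

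Counted from the transcript starts that end these windows, TGAGTCA began 210 bases before the start for F3, 127 for ANXA2 and 186 for PLAUR, and 4.20% of 35116 promoters of this length hold the motif on either strand. TATA boxes began 28 bases before these starts for F3, 31 for ANXA2 and 30 for SERPINB2, a motif in 10.7% of promoters. SERPINB2 also held TGACCT, as did TFPI, and 12.1% of promoters have this core. The PU.1 core, on either strand, was in the windows of PROS1, TFPI and PLAU, which had 2 matches, and is in 23.6% of promoters. A match describes letters in the window and not binding. The window of S100A10 held none of these 4 motifs.

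F3 encodes tissue factor, the membrane protein that initiates coagulation, and lies on chromosome 1 of hg38 from 94529173 to 94541759. Its level was 37.1 and 30.2 CPM in the scramble libraries, 23.8 and 20.7 in shKDM3B, 2.88 and 3.23 in scramble+ATRA, and 3.47 and 5.02 in shKDM3B+ATRA. The untreated libraries all lay above the ATRA-treated ones, and the conditions followed one another from scramble through shKDM3B to shKDM3B+ATRA and scramble+ATRA without overlap. With 2 libraries a side, the libraries of all genes tested did not overlap for 57.1% with ATRA in scramble cells, 76.8% in shKDM3B cells, 40.3% with knockdown without ATRA and 49.6% with it, and this background holds for each such statement below. In scramble cells F3 fell 10.8-fold with ATRA (log2 fold change -3.43, standard error 0.29, adjusted p = 6.4e-04 from edgeR), and in shKDM3B cells 5.03-fold (log2 -2.33, standard error 0.24, adjusted p = 4.5e-05). Within libraries alike in their share of pairs outside genes, with replicate 2 of scramble+ATRA left out, the log2 fold change in scramble cells was -3.54.

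Knockdown went with 1.51-fold less F3 in untreated cells, just past the fold threshold (log2 -0.60, standard error 0.20, unadjusted P = 0.0152, adjusted p = 0.328 from edgeR). The call was lost without replicate 1 of scramble (log2 -0.44) or replicate 2 of shKDM3B (log2 -0.51). Under ATRA the difference had the opposite sign and was not called (log2 0.48, standard error 0.37, adjusted p = 0.703 from edgeR). The fall with ATRA was smaller in shKDM3B than in scramble cells by 1.08 on the log2 scale in the test of the difference itself (standard error 0.35, unadjusted P = 0.0175), in which 1.27% of 13528 genes were called higher, 2.72% lower and 0 genes passed an adjusted p of 0.05 by edgeR, with 607 (4.49%) under an unadjusted P of 0.05 at any fold and 25 (0.185%) past the adjusted threshold by DESeq2, none of them among the 9. This call was lost without replicate 1 of scramble (0.91), replicate 2 of shKDM3B (1.03) or replicate 2 of shKDM3B+ATRA (0.79).

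**Figure D2:**
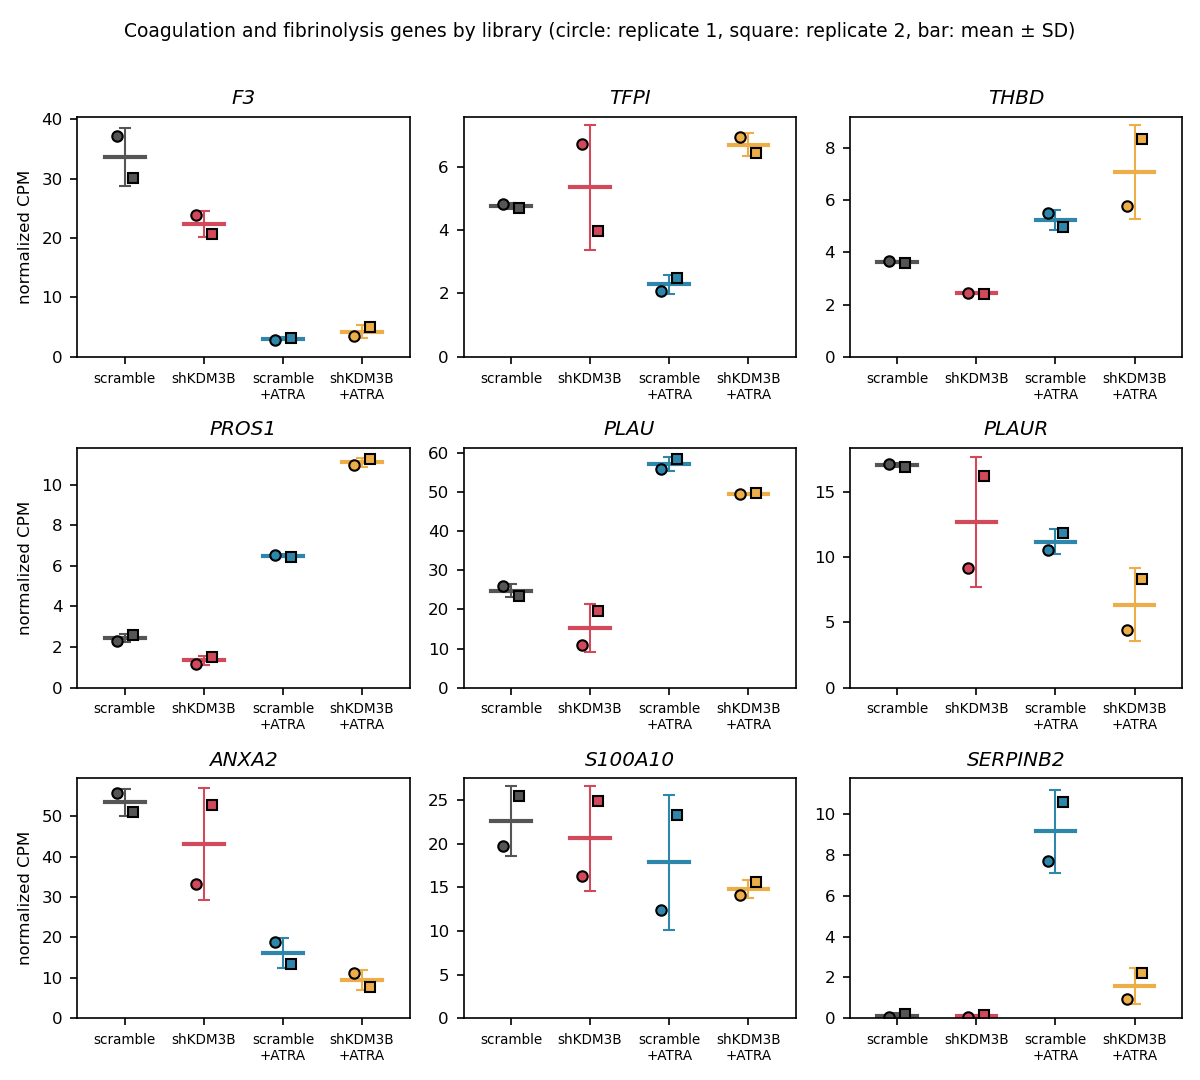
Each panel plots the normalized CPM of a gene (vertical axis) in the 4 conditions, with a circle for replicate 1, a square for replicate 2, and a bar with its error for the mean ± SD of 2 libraries. F3 and ANXA2 are lower in all ATRA-treated libraries, PLAU and PROS1 higher, and SERPINB2 is highest in scramble+ATRA at 7.72 and 10.6 CPM.

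Among the inhibitors of coagulation, PROS1, THBD and TFPI had different patterns. PROS1 encodes protein S, the plasma cofactor of activated protein C and of tissue factor pathway inhibitor, on chromosome 3 from 93873051 to 93980003. It was measured at 2.31 and 2.60 CPM in scramble, 1.18 and 1.503 in shKDM3B, 6.55 and 6.45 in scramble+ATRA and 10.9 and 11.2 in shKDM3B+ATRA. No condition overlapped another, and the shKDM3B libraries were the lowest without ATRA and the highest with it.

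With ATRA, PROS1 rose 2.71-fold in scramble cells (log2 1.44, standard error 0.37, adjusted p = 0.0443 from edgeR) and 8.44-fold in shKDM3B cells (log2 3.08, standard error 0.29, adjusted p = 2.6e-05). The response was larger in shKDM3B cells by 1.63 on the log2 scale (standard error 0.39, unadjusted P = 0.00372, adjusted p = 1.0 from edgeR), and this difference was called in each of the 8 fits that left out a library, at 1.48 to 1.88. The knockdown difference itself was -0.86 on the log2 scale without ATRA (standard error 0.36, unadjusted P = 0.0415, adjusted p = 0.461) and 0.77 with ATRA (standard error 0.24, unadjusted P = 0.0384, adjusted p = 0.508), both from edgeR. The first was not called when any of its 4 libraries was left out, at -1.06 to -0.71, or by DESeq2 (unadjusted P = 0.118). The call of the second was lost without replicate 1 (0.80) or replicate 2 (0.76) of shKDM3B+ATRA, and by edgeR with no filter on low counts (unadjusted P = 0.0894). The call of the response in scramble cells was lost without replicate 1 (1.32) or replicate 2 (1.51) of scramble. Within libraries alike in pairs outside genes, the response of scramble cells was 1.42 and the knockdown difference under ATRA 0.79 on the log2 scale.

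THBD encodes thrombomodulin, the receptor that turns thrombin from a clotting enzyme into an activator of protein C, and lies on chromosome 20 from 23045633 to 23049672. The libraries gave 3.66 and 3.61 CPM in scramble, 2.46 and 2.42 in shKDM3B, 5.51 and 4.98 in scramble+ATRA, and 5.79 and 8.34 in shKDM3B+ATRA. The shKDM3B libraries were below those of scramble without ATRA and above them with it, and neither difference was called. In shKDM3B cells THBD rose 2.996-fold with ATRA (log2 1.58, standard error 0.31, adjusted p = 0.00223 from edgeR). The log2 fold change in scramble cells was 0.56 and did not pass (standard error 0.36, adjusted p = 0.366), although both treated libraries were above both untreated ones.

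The response of THBD was larger in shKDM3B cells by 1.00 on the log2 scale, close to the threshold (standard error 0.42, unadjusted P = 0.0486, adjusted p = 1.0 from edgeR). It was not called in 6 of the 8 fits with a library left out, in which it was 0.71 to 1.27, the exceptions being those without replicate 1 of scramble+ATRA (1.08) and replicate 1 of shKDM3B+ATRA (1.27), nor by DESeq2 (unadjusted P = 0.0839). The knockdown differences were -0.57 without ATRA (standard error 0.30) and 0.43 with ATRA (standard error 0.33). THBD and TFPI are also made by endothelial cells, and the summed level of 6 endothelial markers was 33.2 to 45.0 CPM in scramble, 28.9 to 37.0 in shKDM3B, 82.5 to 99.9 in scramble+ATRA and 65.3 to 67.6 in shKDM3B+ATRA. PECAM1, which myeloid cells also express, was the only marker of that list above 1 CPM in both libraries of any condition, and KDR was at 0 throughout.

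TFPI encodes tissue factor pathway inhibitor, which blocks the complex of tissue factor and factor VII, and lies on chromosome 2 from 187464230 to 187565760. Its values were 4.82 and 4.70 CPM in scramble, 6.73 and 3.96 in shKDM3B, 2.08 and 2.49 in scramble+ATRA and 6.95 and 6.43 in shKDM3B+ATRA. Scramble+ATRA was below every other condition, and the shKDM3B libraries spanned the values of scramble cells. In scramble cells it was 2.04-fold lower with ATRA (log2 -1.03, standard error 0.39, unadjusted P = 0.0318, adjusted p = 0.137 from edgeR). In shKDM3B cells the change was 0.39 on the log2 scale and did not pass (standard error 0.31, adjusted p = 0.329), but it was 0.76 and called without replicate 1 of shKDM3B and 0.04 without replicate 2.

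Under ATRA, TFPI was 2.93-fold higher in shKDM3B than in scramble cells (log2 1.55, standard error 0.32, unadjusted P = 0.00987, adjusted p = 0.502 from edgeR), and it was 1.43 on the log2 scale within libraries alike in pairs outside genes. Without ATRA the difference was 0.16 (standard error 0.32), and -0.27 with replicate 1 of shKDM3B left out. The response to ATRA was higher by 1.39 on the log2 scale in shKDM3B cells (standard error 0.48, unadjusted P = 0.0225, adjusted p = 1.0 from edgeR). The call of the knockdown difference under ATRA was lost without replicate 1 (1.497) or replicate 2 (1.61) of shKDM3B+ATRA, and that of the difference in response without replicate 1 of scramble (1.37), replicate 2 of shKDM3B (1.10) or replicate 1 of shKDM3B+ATRA (1.37). In scramble cells the call of the lower level with ATRA was lost without either scramble library (-1.03 and -1.05) or replicate 1 of scramble+ATRA (-0.90). This lower level was also not called by DESeq2 (unadjusted P = 0.0546) or by edgeR with no filter on low counts (unadjusted P = 0.0637).

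Megakaryocytes and platelets also hold TFPI and protein S. The summed level of 6 of their markers was 7.63 to 7.83 CPM in scramble, 1.80 to 3.62 in shKDM3B, 4.84 to 4.98 in scramble+ATRA and 3.47 to 4.92 in shKDM3B+ATRA, and PF4, GP9 and GP6 of that list were at 0 in every library. ITGA2B, an integrin subunit of platelets, was called lower with knockdown without ATRA (log2 -1.51, adjusted p = 0.175 from edgeR). GP1BA, a platelet glycoprotein, was called higher with ATRA in shKDM3B cells (adjusted p = 9.2e-05 from edgeR), at 0.0513 and 0.0307 CPM in shKDM3B and 1.79 and 1.91 in shKDM3B+ATRA, against 0 in both scramble libraries and 0 and 0.369 in scramble+ATRA. The part of these markers in the values of TFPI and PROS1 was not tested.

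The median log2 fold change of these 3 inhibitors was 0.56 with ATRA in scramble cells, 1.58 in shKDM3B cells, -0.57 with knockdown alone and 0.77 with knockdown under ATRA. Over all genes tested, the medians were 0.02, 0.04, 0.00022 and 0.03.

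**Figure D3:**
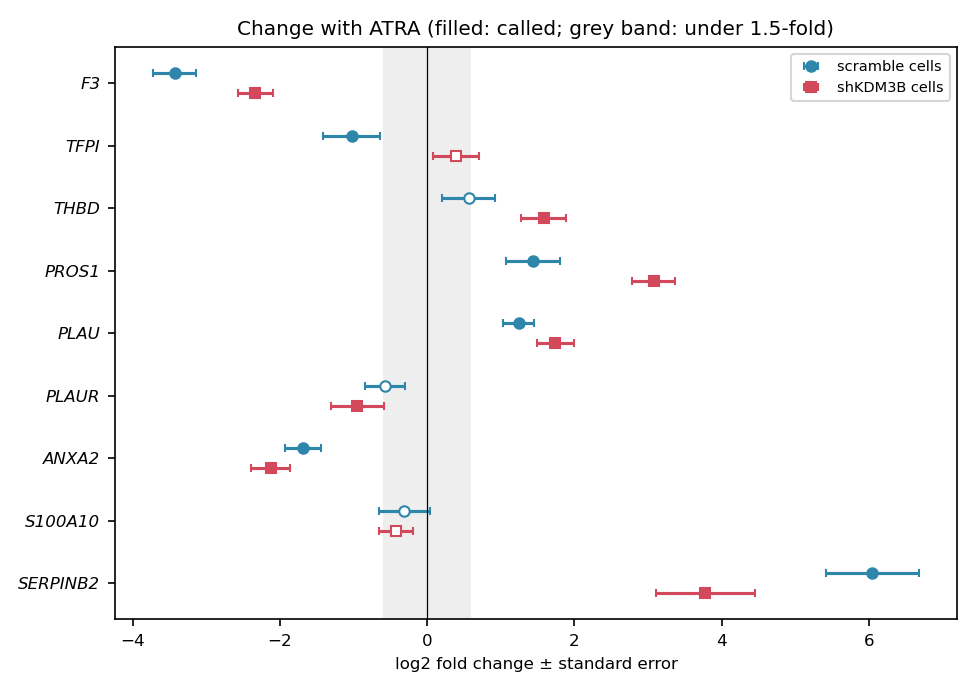
The points give the log2 fold change with ATRA (horizontal axis) of each of the 9 genes in scramble cells (circles) and shKDM3B cells (squares), with standard errors, filled where called and open where not, and the grey band marks changes under 1.5-fold. F3 and ANXA2 lie on the left in both backgrounds, PROS1, PLAU and SERPINB2 on the right, and TFPI at -1.03 in scramble cells and 0.39, not called, in shKDM3B cells.

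The 4 genes of plasmin generation at the cell surface had different patterns. PLAU encodes urokinase, the protease that activates plasminogen, and lies on chromosome 10 from 73909177 to 73917496. It had 25.9 and 23.6 CPM in scramble, 10.8 and 19.7 in shKDM3B, 56.0 and 58.4 in scramble+ATRA and 49.5 and 49.8 in shKDM3B+ATRA. All treated libraries were above all untreated ones, and the shKDM3B libraries were below those of scramble with and without ATRA.

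PLAU rose 2.37-fold with ATRA in scramble cells (log2 1.24, standard error 0.21, adjusted p = 0.00986 from edgeR) and 3.34-fold in shKDM3B cells (log2 1.74, standard error 0.25, adjusted p = 3.8e-04). In untreated cells it was 1.61-fold lower with knockdown (log2 -0.69, standard error 0.28, unadjusted P = 0.0392, adjusted p = 0.454 from edgeR). That value rested on replicate 1 of shKDM3B, being -0.33 and not called without it, and was -1.20 without replicate 2. With ATRA the knockdown difference was -0.20 and not called (standard error 0.12, adjusted p = 0.621). The exons of C10orf55 overlap 31.0% of the exon length of PLAU, over 915 bases on the opposite strand. When the counts of both genes were added, the knockdown difference under ATRA was 0.03, and the response to ATRA was 1.47 in scramble and 2.20 in shKDM3B cells. C10orf55 had 171 to 219 counts in the libraries with the larger share of pairs outside genes and 2 to 6 in the others. The sum therefore adds to PLAU mainly in those libraries, and does not correct the values for the overlap. The response of PLAU alone in shKDM3B cells was 1.34 without replicate 1 and 2.25 without replicate 2 of shKDM3B, and called in both. The difference in response between the backgrounds was 0.49 on the log2 scale and not called (standard error 0.36), at 0.13 without replicate 1 of shKDM3B and 1.04, past the threshold, without replicate 2.

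PLAUR, the urokinase receptor that holds the protease at the membrane, lies on chromosome 19 from 43646095 to 43670547. It was found at 17.2 and 16.9 CPM in scramble, 9.19 and 16.3 in shKDM3B, 10.5 and 11.9 in scramble+ATRA and 4.42 and 8.34 in shKDM3B+ATRA. The scramble libraries were the highest and those of shKDM3B+ATRA the lowest, and the shKDM3B libraries spanned scramble+ATRA. PLAUR was called only with ATRA in shKDM3B cells, where it was 1.93-fold lower (log2 -0.95, standard error 0.36, unadjusted P = 0.0261, adjusted p = 0.0517 from edgeR). The call was lost without replicate 2 of shKDM3B (-0.47) or replicate 1 of shKDM3B+ATRA (-0.59).

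In scramble cells the log2 fold change of PLAUR with ATRA was -0.57 (standard error 0.27, adjusted p = 0.226 from edgeR), and past the threshold without replicate 2 of scramble+ATRA (-0.69) or with scaling by library size alone (-0.67). The knockdown differences were -0.41 without ATRA (standard error 0.28) and -0.81 with it (standard error 0.42). The first was -0.07 without replicate 1 of shKDM3B and -0.90, past the threshold, without replicate 2. The second was called without replicate 1 (-0.88) and without replicate 2 (-0.72) of scramble+ATRA, and was -0.42 without replicate 1 and -1.33 without replicate 2 of shKDM3B+ATRA, not called in either. The difference of the responses of PLAUR between the backgrounds was -0.39 on the log2 scale and not called (standard error 0.53).

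ANXA2 encodes annexin A2, the part of the plasminogen receptor that binds membrane phospholipids, and lies on chromosome 15 from 60347134 to 60402883. Across the libraries it was 55.8 and 51.0 CPM in scramble, 33.2 and 52.8 in shKDM3B, 18.8 and 13.5 in scramble+ATRA and 11.3 and 7.83 in shKDM3B+ATRA. Every treated library was below every untreated one, and both shKDM3B+ATRA libraries were below both of scramble+ATRA. With ATRA it fell 3.22-fold in scramble cells (log2 -1.69, standard error 0.25, adjusted p = 0.00534 from edgeR) and 4.36-fold in shKDM3B cells (log2 -2.12, standard error 0.26, adjusted p = 1.6e-04), and both calls stood in all 8 fits that left out a library.

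Knockdown differences of ANXA2 were -0.31 without ATRA (standard error 0.23) and -0.76 with ATRA (standard error 0.34, unadjusted P = 0.0977), and neither was called. The first was -0.015 without replicate 1 of shKDM3B and -0.70, past the threshold, without replicate 2, and the second was -0.98 and called without replicate 2 of scramble+ATRA, and -0.77 and called in 1 fit of all 8 libraries. The difference in response was -0.46 on the log2 scale (standard error 0.41) and was not called, nor in any of the 8 fits with a library left out, at -0.74 to -0.02. ANXA2P2, a processed copy of ANXA2 whose reads can be confused with it, had 8 to 89 counts per library, and adding them gave -1.68 and -2.07 for the responses to ATRA.

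S100A10 encodes the partner of annexin A2, which carries the plasminogen binding site of the complex, and lies on chromosome 1 from 151982915 to 151993859. Its levels were 19.7 and 25.5 CPM in scramble, 16.3 and 24.8 in shKDM3B, 12.4 and 23.3 in scramble+ATRA, and 14.1 and 15.6 in shKDM3B+ATRA. Replicate 2 was above replicate 1 in each condition, and the ranges overlapped between conditions, except that shKDM3B+ATRA lay below both untreated conditions. It was the only member called in none of the comparisons. The log2 fold change with ATRA was -0.31 in scramble cells (standard error 0.35) and -0.43 in shKDM3B cells (standard error 0.23), and knockdown gave -0.13 without ATRA (standard error 0.25) and -0.26 with it (standard error 0.39).

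These values of S100A10 depended on the library. In scramble cells the response was 0.08 without replicate 1 of scramble+ATRA and -0.86, past the threshold, without replicate 2, which leaves libraries alike in pairs outside genes. In shKDM3B cells it was -0.74 and called without replicate 1 of shKDM3B. The knockdown difference was 0.14 without replicate 1 of shKDM3B and 0.07 without replicate 2 of scramble. Under ATRA it was -0.64 and called without replicate 1 of scramble+ATRA, and 0.26 without replicate 2. The difference in response between the backgrounds was -0.13 (standard error 0.48) and not called. The protein, which is known to be stabilised by binding annexin A2, was not measured here.

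Over these 4 genes of plasmin generation, the median log2 fold change was -0.44 with ATRA in scramble cells, -0.69 in shKDM3B cells, -0.36 with knockdown alone and -0.51 with knockdown under ATRA, with medians over all genes of 0.02, 0.04, 0.00022 and 0.03.

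SERPINB2 encodes plasminogen activator inhibitor type 2, a serpin that inhibits urokinase and is induced in activated monocytes, and lies on chromosome 18 from 63871692 to 63903888. Its raw counts were 1 and 5 in scramble, 1 and 5 in shKDM3B, 126 and 115 in scramble+ATRA and 9 and 22 in shKDM3B+ATRA. This corresponds to 0.0502 and 0.210 CPM, 0.0513 and 0.153, 7.72 and 10.6, and 0.947 and 2.21. The untreated libraries were near zero, both treated conditions lay above them, and scramble+ATRA was above shKDM3B+ATRA without overlap.

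With ATRA, SERPINB2 rose in both backgrounds (adjusted p = 0.00146 in scramble and 0.00135 in shKDM3B cells from edgeR). Because the untreated counts were so low, the size of the rise is given as the ratio of pooled counts per counted pair, with an exact 95% interval for counting error only. It was 64.7 in scramble cells (95% interval 29.3 to 178, from 241 against 6 counts) and 13.8 in shKDM3B cells (5.68 to 40.6, from 31 against 6). The fitted log2 fold change of 6.05 in scramble cells was 5.40 without replicate 1 and 7.32 without replicate 2 of scramble, and that of 3.78 in shKDM3B cells was 4.76 without replicate 2 of shKDM3B and 3.04 without replicate 2 of shKDM3B+ATRA.

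Under ATRA, SERPINB2 was 5.74-fold lower in shKDM3B than in scramble cells (log2 -2.52, standard error 0.57, unadjusted P = 0.0136, adjusted p = 0.502 from edgeR), and by pooled counts 5.57-fold (95% interval 3.82 to 8.37 for counting error only). The log2 value was -2.72 within libraries alike in pairs outside genes. It was not called without replicate 1 of shKDM3B+ATRA (-2.04) and was -3.25 without replicate 2. The difference in response was -2.26 on the log2 scale and did not pass (standard error 1.10, unadjusted P = 0.0775), although it was called without replicate 2 of scramble (-3.56) or replicate 2 of shKDM3B+ATRA (-2.99). In untreated cells SERPINB2 was below the filter on low counts and its pooled ratio was 0.840 (95% interval 0.225 to 3.14).

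The summed level of 6 monocyte markers followed the same order as SERPINB2 among the treated cells, at 29.3 to 33.8 CPM in scramble+ATRA and 9.69 to 13.2 in shKDM3B+ATRA, against 6.57 to 8.05 in scramble and 3.39 to 5.55 in shKDM3B. CD163 of that list was at 0 in every library. The part of these markers, and of the granulocyte markers that moved with ATRA, in the values of the 9 genes was not tested. In the annotation used here, 19.96% of the exon length of SERPINB2 is shared with a second protein-coding gene model on the same strand, so that reads in that stretch cannot be assigned to SERPINB2 alone.

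Values for the members not yet given within libraries alike in pairs outside genes follow. Each such fit holds 1 scramble+ATRA library, so that the spread of this condition was not measured. Without replicate 2 of scramble+ATRA, the log2 fold change with ATRA in scramble cells was -1.497 for ANXA2, -1.18 for TFPI, 1.18 for PLAU, 5.77 for SERPINB2 and 0.61 for THBD. Without replicate 1 of scramble+ATRA, the knockdown difference under ATRA was 0.41 for F3, 0.52 for THBD, -0.22 for PLAU and -0.495 for ANXA2.

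**Figure D4:**
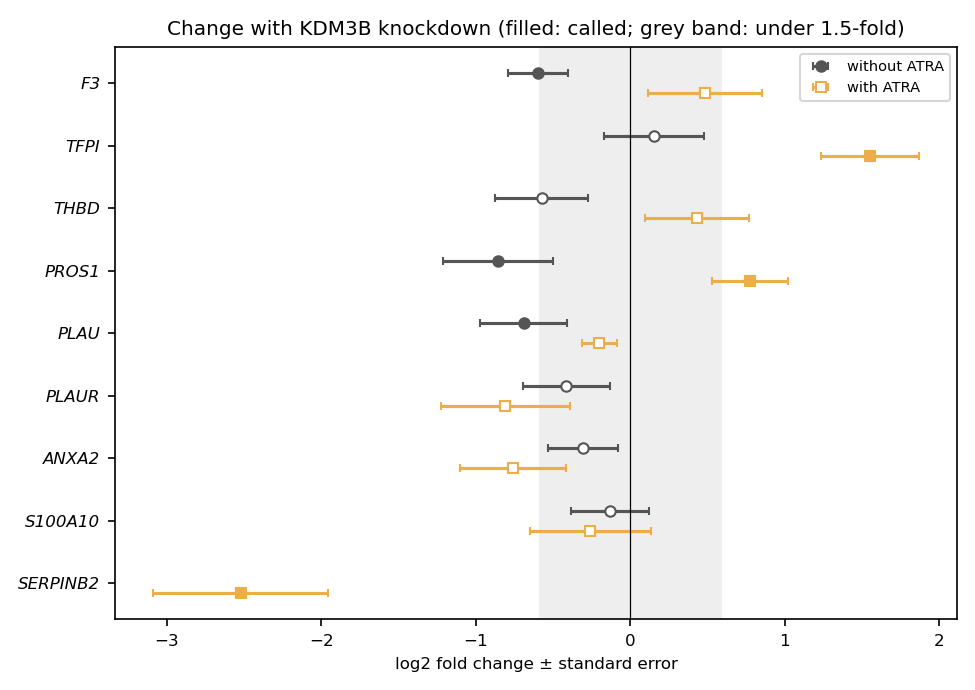
The points give the log2 fold change with KDM3B knockdown (horizontal axis) of each gene without ATRA (circles) and with ATRA (squares), with standard errors, filled where called and open where not, and the grey band marks changes under 1.5-fold. SERPINB2 has no point without ATRA, and F3, THBD and PROS1 lie left of zero without ATRA and right of zero with it.

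Per kilobase of annotated exon, which allows levels of different genes to be compared, S100A10 was the most abundant of the 9 in scramble cells at a mean of 22.3 CPM per kilobase, before F3 at 11.7, PLAU at 8.39, ANXA2 at 4.61 and PLAUR at 3.83. THBD, PROS1, TFPI and SERPINB2 were between 0.0474 and 0.900. With ATRA the order of the means changed, PLAU being first at 19.4 in scramble+ATRA and 16.8 in shKDM3B+ATRA, followed by S100A10 at 17.6 and 14.7. S100A10 was at 12.4 and 23.3 CPM in the scramble+ATRA libraries, and in replicate 2 it stood above PLAU per kilobase. F3 was then at 1.06 and 1.47, below PROS1 at 1.23 and 2.11 in both. The exon length counts every annotated exon of a gene, 11714 bases for TFPI and 11574 for ANXA2, so genes with many alternative exons are placed lower by it.

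The other genes of coagulation and fibrinolysis were mostly silent. Of 16 genes of the clotting cascade, 3 had enough counts to be tested with ATRA, F5, F8 and F12. F5, whose protein is the cofactor of factor X, had 1 and 4 counts in scramble, 0 and 3 in shKDM3B, 336 and 92 in scramble+ATRA and 60 and 82 in shKDM3B+ATRA. It was called higher with ATRA in both backgrounds (adjusted p = 0.00142 and 1.3e-05 from edgeR), with pooled ratios of 138 (95% counting interval 58.6 to 427) and 127 (42.5 to 622). The first rested on replicate 1 of scramble+ATRA, at 20.6 CPM against 6.32 to 8.48 in the other 3 treated libraries, and was 74.2 (30.7 to 234) without it. F8, the cofactor of factor IX, was called higher in shKDM3B cells (log2 1.65, adjusted p = 0.0018 from edgeR), but its level also went with the share of pairs outside genes, at 5.07 to 6.21 CPM in the 3 libraries with 50.0% to 51.4% of such pairs, 2.88 in replicate 1 of scramble+ATRA and 1.69 to 3.10 in the untreated libraries. F12 was not called.

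Of 9 other anticoagulant genes, only ANXA5, which shields membrane phospholipid from clotting factors, was tested, and it was called higher in both backgrounds (log2 0.81, adjusted p = 0.0531, and 1.23, adjusted p = 2.6e-04 from edgeR). Of 14 other genes of fibrinolysis, 4 were tested. SERPINE2, an inhibitor of thrombin and urokinase, was lower with ATRA in scramble (log2 -0.85, adjusted p = 0.0645) and shKDM3B cells (log2 -1.91, adjusted p = 8.0e-05), and SERPINB8, an intracellular serpin, was lower in both (log2 -1.004, adjusted p = 0.121, and -1.08, adjusted p = 0.016). Apart from the members and the cell type markers, SERPINE2 was the only gene of the lists called with knockdown under ATRA (log2 -1.60, unadjusted P = 0.010, adjusted p = 0.502 from edgeR), where it moved in the same direction as SERPINB2. PLGRKT, a plasminogen receptor, was called higher with ATRA in shKDM3B cells (log2 0.65, adjusted p = 0.0759). PLAT, which encodes tissue plasminogen activator, had at most 0.369 CPM in any library and was not tested.

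Of the genes for clotting factor processing, 6 of 6 were tested. GGCX, the carboxylase that acts on protein S and other vitamin K dependent factors, was called higher with ATRA in both backgrounds, but its counts followed the share of pairs outside genes, with 393 in replicate 1 of scramble+ATRA, 384 to 760 in the untreated libraries and 1404 to 2256 in the other 3. FURIN and VKORC1 were called lower with ATRA in shKDM3B cells. VKORC1 was at 0.803 to 1.11 CPM in the libraries with the larger share of pairs outside genes. It was at 1.78 in replicate 1 of scramble+ATRA and 1.85 to 3.23 in the untreated libraries. Of 9 phospholipid scramblases and flippases, which set the exposure of the phosphatidylserine that clotting factors bind, 6 were tested. PLSCR1 was called higher in both backgrounds (log2 1.05, adjusted p = 0.0256, and 1.45, adjusted p = 9.1e-05 from edgeR) and TMEM30A in shKDM3B cells (log2 0.70, adjusted p = 0.0055). The level of TMEM30A went with the share of pairs outside genes, at 136 to 172 CPM in the libraries where that share was larger. It was 100 in replicate 1 of scramble+ATRA and 89.8 to 123 in the untreated libraries. Of the 2 protease-activated receptors tested out of 4, F2RL3 was called lower with ATRA in shKDM3B cells (log2 -2.78, adjusted p = 0.0046).

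Among the 7 annexins other than ANXA2, 6 were tested, and with ATRA in scramble cells 3 were called higher, ANXA1, ANXA5 and ANXA11, and 1 lower, ANXA6. In shKDM3B cells ANXA1 and ANXA5 were called higher and ANXA6 lower. Apart from the members and the cell type markers, ANXA6 was also the only gene of the lists called with knockdown in untreated cells (log2 -0.62, unadjusted P = 0.0060, adjusted p = 0.224 from edgeR). CTSG, encoding cathepsin G, a granule protease of promyelocytes, fell with ATRA in scramble (log2 -5.04) and shKDM3B cells (log2 -6.16, adjusted p = 2.6e-04 and 4.9e-08 from edgeR), and in the test of the difference in response CTSG and SERPINE2 were called lower in shKDM3B cells. MPO was called higher there (1.10 on the log2 scale, unadjusted P = 0.00524, adjusted p = 1.0 from edgeR), and no other gene of the lists beside the members was called in that test.

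The genes most like each member over the 8 libraries were those with the smallest root mean square difference of log2 CPM centred on the gene's mean, among 11623 genes. For F3 they were MS4A2 (0.240), SERPINB10 (0.279) and RNF182 (0.332), against a range of 3.63 in F3 itself. For SERPINB2 they were SLC24A4 (0.366), PLIN4 (0.396) and DAW1 (0.430) against a range of 6.16, and for PROS1 WSB2 (0.243), DACT3 (0.244) and APOL6 (0.265) against a range of 3.16. ANXA2 was most like KCTD15, CAPN2 and PJA1 (0.181 to 0.229), PLAU like MIDN, MOV10 and WAS (0.112 to 0.157), THBD like FAM174B, TPM1 and MEF2C (0.139 to 0.210), and TFPI like SLC40A1, TMEM117 and ZNF607 (0.223 to 0.253). PLAUR was most like VDAC1P1, C12orf75 and ZNF321P (0.0837 to 0.191) and S100A10 like CRLS1, UCHL3 and TMEM9 (0.153 to 0.169), with ranges of 1.90 and 1.03.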

How the data were processed

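Total RNA of NB4 cells was sequenced as paired-end libraries. Trim Galore, HISAT2 with hg38 and HTSeq were the tools that the authors used to make the deposited files, which hold raw counts of read pairs per gene, not normalized. The versions and the strand setting are not given in the sources used here, and the untreated and treated files list 56470 and 56609 names, of which 37526 are shared. Rows of pairs that name no gene were left out of library sizes and tests. Of uniquely aligned pairs, 8.49% to 51.4% were assigned to no gene and 2.39% to 4.31% were ambiguous between genes. Groups were taken from the sample titles.

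Each pair of conditions was fitted on its own with edgeR 4.0.16 in R 4.3.3 (filterByExpr, TMM scaling, quasi-likelihood F test) on the counts as deposited, over the names listed in all libraries compared. Standard errors were taken as the absolute log2 fold change over the square root of F. A gene was called at an unadjusted P-value under 0.05 and a fold change of at least 1.5, the rule of the study, which used DESeq2. Adjusted p-values are Benjamini-Hochberg over all genes of a fit. Responses to ATRA in the 2 backgrounds were compared by an interaction term in a fit of all 8 libraries. CPM were TMM-scaled over all 8 libraries and the shared names, and fold changes come from the fit of each comparison. Positions and exon lengths are from GENCODE v44 on hg38, and promoters from RefSeq on GRCh38.p14.

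The 9 members and the gene lists were chosen with earlier results of these data known. All 9 members and KDM3B are named in each comparison, list genes where called or to describe the list, and the 3 genes most like each member. These were sought with a prior count of 2 among genes averaging 20 or more counts, and names built from clone accessions were left out.

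Alternatives were DESeq2 size factors, library size alone, no filter on low counts, 10 or more counts required in 2 libraries, the Wald test of DESeq2 1.42.0, adjusted p-values, 1 fit over all 8 libraries, a replicate block and each library left out. Adding the counts of C10orf55 to PLAU and of ANXA2P2 to ANXA2, and leaving out libraries for the ratio of F5, were chosen after seeing the data. The procedure was tested on simulated data. Depth was 9708739 to 33017787 counted pairs, so that 3 counts correspond to 0.0909 to 0.309 CPM. Counting intervals are exact and conditional on the total, and cover counting error only. Tables and figures were made with Python 3.11.15, pandas 2.3.3 and matplotlib 3.10.9.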

Additional observations from a re-analysis of the deposited data

Results flagged for a closer look

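The response to ATRA differed between shKDM3B and scramble cells, by the interaction test at an unadjusted P under 0.05, for 4 of the 9 genes, against 4.49% of all 13528 genes at any fold and, past 1.5-fold, 1.27% higher and 2.72% lower. As the 9 were chosen with earlier results of these data known, the shares of all genes describe these calls and test no excess. The difference, response in shKDM3B cells minus response in scramble cells on the log2 scale, was 1.08 for F3, 1.39 for TFPI, 1.00 for THBD and 1.63 for PROS1. The adjusted p was 1.0 for each (edgeR, Benjamini-Hochberg), and only the difference of PROS1 was called in all 8 fits that left out a library.

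C10orf55, which is not one of the 9 genes, had 219 counts in replicate 2 of scramble+ATRA, 171 in replicate 1 of shKDM3B+ATRA and 201 in replicate 2 of shKDM3B+ATRA, against 2 to 6 in the untreated libraries and 5 in replicate 1 of scramble+ATRA. The same 3 libraries had 50.0% to 51.4% of pairs outside genes.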

How the results depend on the processing

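Counts of members called stayed within 1.5 times the reported count under each alternative to scaling, low-count filter, test and fit that was run. The exceptions came from adjusted p-values, which left 0 members called in both knockdown comparisons and in the difference of responses, and from leaving out a library. With each library left out in turn, 4 to 8 members were called with ATRA in scramble cells, 6 to 9 in shKDM3B cells, 1 to 3 with knockdown without ATRA, 0 to 5 with knockdown under ATRA and 1 to 4 in the difference of responses. The share of all genes called moved as well, over 11.1% to 38.4%, 37.3% to 46.1%, 6.49% to 11.6%, 0.889% to 36.4% and 2.04% to 17.4% in the same order. Under ATRA the count of 5 arose without replicate 1 and without replicate 2 of scramble+ATRA, where 17% and 36.4% of all genes were called, and the counts of 0 and 1 without replicate 1 and replicate 2 of shKDM3B+ATRA, where 0.889% and 1.88% were. Without ATRA it was 1 without replicate 1 of scramble or of shKDM3B, and for the difference 1 without replicate 1 of scramble and 2 without replicate 2 of shKDM3B. A condition left with 1 library was assumed to vary like the others.

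Signs turned only for differences that were not called. With C10orf55 added, which changes mainly the libraries with the larger share of pairs outside genes, the knockdown difference of PLAU under ATRA was 0.033. With a library left out, log2 values ranged for S100A10 from -0.86 to 0.08 with ATRA in scramble cells, from -0.48 to 0.14 with knockdown, from -0.64 to 0.26 with knockdown under ATRA and from -0.52 to 0.38 for the difference in response. They ranged from -0.27 to 0.49 for TFPI with knockdown without ATRA and from -0.92 to 0.13 for the difference in response of PLAUR. For KDM3B the range was -0.59 to 0.07 with ATRA in scramble cells.

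The replicate numbers are shared between conditions, but with 2 libraries each the data do not show that they pair them. Deviations of same-numbered libraries correlated at 0.389 between scramble and shKDM3B, -0.070 between scramble and scramble+ATRA, 0.184 between shKDM3B and shKDM3B+ATRA and 0.026 between the treated conditions. With the replicate number as a block, 5 members were called with ATRA in scramble cells, TFPI not being called, 7 in shKDM3B cells, 3 with knockdown, 2 with knockdown under ATRA, PROS1 not being called, and 4 in the difference of responses, SERPINB2 (-2.36) in place of THBD. Of all genes, 23.2%, 42.7%, 8.96%, 3.68% and 3.98% were called with it in that order. The adjusted p in the block fit was 0.0119 for F3 and 0.0192 for PLAU with knockdown without ATRA.

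Depth limits SERPINB2 most, with 1 to 5 counts in untreated libraries. With a minimum of 10 counts in 2 libraries it was not tested for the response of shKDM3B cells, in which only 1 library reaches that count.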

Other observations

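The shKDM3B libraries differed from each other for the genes of plasmin generation. Replicate 1 was below replicate 2 for PLAU (10.8 and 19.7 CPM), PLAUR (9.19 and 16.3), ANXA2 (33.2 and 52.8) and S100A10 (16.3 and 24.8), whereas TFPI was higher in replicate 1 (6.73 and 3.96) and THBD was alike in both (2.46 and 2.42). In scramble+ATRA the libraries of S100A10 were as far apart (12.4 and 23.3 CPM), while those of PLAU (56.0 and 58.4) and PROS1 (6.55 and 6.45) were close.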
